A study of Mus musculus with 7 samples.

Results

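The flavin-containing monooxygenase genes Fmo1, Fmo2, Fmo4 and Fmo5 were followed in liver RNA of control and Trpm6-deficient mice. They are 4 of 19938 genes that the platform annotation names by a single symbol on the array, and each of the 4 had 1 probe set under its symbol alone, so no member was without a named probe set. The genes were chosen by symbol, and where a gene had several probe sets the one to use was to be selected on its mean value over the 7 arrays. With 1 probe set per gene these means chose nothing. All mice were male littermates with the genetic background C57BL/6. The 4 control mice carried 1 floxed and 1 wild-type Trpm6 allele (Trpm6 fl/+) and no Cre, and were 12 weeks (controls 1 and 2) or 13 weeks old (controls 3 and 4). The 3 Trpm6-deficient mice, labelled mutant, lacked the floxed exon on both alleles (Trpm6 Δ17/Δ17;Sox2-Cre): the paternal allele was inherited already deleted, and Sox2-Cre, also from the father, removed the exon from the maternal floxed allele in the embryo proper but not in extraembryonic tissues. Their loss of Trpm6 was thus body-wide and not a property of the liver alone, and they were 12 weeks (Trpm6-deficient 2) or 13 weeks old (Trpm6-deficient 1 and 3). Each mouse gave 1 array.

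Flavin-containing monooxygenases are enzymes of the endoplasmic reticulum that hold FAD, take electrons directly from NADPH and put an oxygen atom on soft nucleophiles, mostly the nitrogen or sulphur of drugs and dietary amines. Unlike cytochromes P450 they need neither heme nor a separate reductase. In mouse liver they belong to the first phase of xenobiotic metabolism, and several of them differ between the sexes.

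Values are the log2 expression values that the authors made by RMA (robust multi-array average, a background correction, normalization and summary of probes), so 1 unit is a doubling. Array medians lay between 6.43 and 6.48 and lower quartiles between 5.05 and 5.11. The targeted gene Trpm6 lay between 5.37 and 5.53 on all 7 arrays, and its probe set does not check the deletion unless it reads the deleted exon, which was not examined. Control 3 stood furthest apart in genes of the circadian clock. Arntl, a core activator of the clock, was at 6.51 there and at 8.54 to 8.79 on the other arrays. Dbp, a clock output gene, was at 10.38 in control 3, at 8.64 in control 2 and at 7.03 to 7.37 on the others. The values of each Fmo gene without control 3 are given below. Of the hepatocyte markers 8 of 10 were measured, and their mean level lay between 13.69 and 13.84 in control and 13.76 and 13.82 in Trpm6-deficient livers.

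The windows around the start sites are shown for Fmo2 and Fmo4, of 1 cluster on chromosome 1, and for Fmo5, alone on chromosome 3. Fmo2 and Fmo4 were higher in every Trpm6-deficient than in every control liver, as were 2.94% of all probe sets, and Fmo5 was not. For Fmo4 the groups were only 0.03 apart, and none of these genes passed the adjusted test given below. Each window runs from 250 bases before to 50 bases after a RefSeq start site, in build GRCm38.p6. RefSeq gives Fmo2, Fmo4 and Fmo5 such windows in the table used here, and Fmo2 has 2 start sites. Fmo1, of the same cluster and also higher, has no window there. Capitals mark matches to the motifs named after the sequences.
Fmo2, upstream start, chr1:162898709-162899008, minus strand: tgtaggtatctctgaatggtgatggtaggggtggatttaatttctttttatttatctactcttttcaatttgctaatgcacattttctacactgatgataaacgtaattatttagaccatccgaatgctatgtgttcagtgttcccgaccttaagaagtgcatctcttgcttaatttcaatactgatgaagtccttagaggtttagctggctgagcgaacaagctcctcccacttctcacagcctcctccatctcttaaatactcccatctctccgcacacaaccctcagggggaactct
Fmo2, downstream start, chr1:162898444-162898743, minus strand: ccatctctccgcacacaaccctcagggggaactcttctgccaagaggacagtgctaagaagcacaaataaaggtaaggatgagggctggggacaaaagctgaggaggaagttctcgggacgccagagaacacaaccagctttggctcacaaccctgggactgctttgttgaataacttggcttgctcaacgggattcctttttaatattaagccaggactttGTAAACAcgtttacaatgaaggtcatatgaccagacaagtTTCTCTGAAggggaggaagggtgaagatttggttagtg
Fmo4, chr1:162812500-162812799, minus strand: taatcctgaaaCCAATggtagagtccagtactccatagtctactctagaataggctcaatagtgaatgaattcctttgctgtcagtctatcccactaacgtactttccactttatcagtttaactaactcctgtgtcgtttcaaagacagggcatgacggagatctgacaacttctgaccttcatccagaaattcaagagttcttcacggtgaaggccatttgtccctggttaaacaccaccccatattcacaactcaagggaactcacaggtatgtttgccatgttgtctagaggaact
Fmo5, chr3:97628769-97629068, plus strand: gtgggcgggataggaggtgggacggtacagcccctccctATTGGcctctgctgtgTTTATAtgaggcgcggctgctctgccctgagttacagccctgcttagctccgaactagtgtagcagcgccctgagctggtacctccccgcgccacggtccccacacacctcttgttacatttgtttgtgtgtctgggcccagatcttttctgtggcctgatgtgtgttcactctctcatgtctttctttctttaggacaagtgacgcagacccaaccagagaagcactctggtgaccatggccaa

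Both strands were searched for 7 motifs: the HNF1 half-site GTTAAT, the FOXA motif TGTTTAC, the STAT5 motif TTCNNNGAA, the antioxidant response element TGACNNNGC, the xenobiotic response element GCGTG, the TATA box TATAAA and the CCAAT box. The downstream window of Fmo2 held the FOXA letters on the minus strand at -28 to -22 from the start (as GTAAACA) and the STAT5 letters 13 to 21 bases after it (as TTCTCTGAA). The window of Fmo4 held a CCAAT box, and that of Fmo5 a CCAAT box and a TATA box, both of the latter on the minus strand. The upstream window of Fmo2 held none of the 7. No match overlapped another, and no motif was shared by all 3 genes. Of 32851 windows of the same length, 3.65% held the FOXA letters, 8.3% the STAT5 letters, 37.4% a CCAAT box and 13.6% a TATA box, against 7.1% for the HNF1 half-site, 12.4% for the antioxidant response element and 32.4% for the xenobiotic response element. A match describes letters only and shows no bound factor.

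Fmo2, Fmo1 and Fmo4 had higher values in every Trpm6-deficient than in every control liver, and Fmo5 did not. Fmo2 was 2.54-fold higher on average, Fmo4 1.63-fold and Fmo1 1.48-fold, whereas Fmo5 was at 0.916 of the control level. Non-overlap with the Trpm6-deficient livers higher was seen in 2.94% of all probe sets. None of the 4 genes passed the test of the study's methods, limma over all 35556 probe sets at a Benjamini-Hochberg adjusted p of 0.1 or less, which 0.129% of probe sets passed. A nominal threshold, an unadjusted p from limma of at most 0.05, was also used. Fmo1 and Fmo2 were higher past it and Fmo4 and Fmo5 were not past it, where 3.85% of all probe sets were higher, 3.03% lower and 6.87% either. With age as a covariate Fmo4 was past it as well, and 4.0% of probe sets were higher, but again 0 of the 4 passed the adjusted threshold, which 0.0225% of probe sets passed. An unmoderated, equal-variance test of each probe set alone gave 0 of the 4 after adjustment (0.0225% of probe sets), and Fmo1 and Fmo2 at the nominal threshold (5.24% of probe sets). The 7 mice are separate animals, and their number limits the precision.

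Fmo2 (probe set 10359582) encodes the form best known from lung. It was at 8.29, 8.19, 8.75 and 7.70 in controls 1 to 4, and at 9.26, 9.78 and 9.70 in Trpm6-deficient 1, 2 and 3. The lowest Trpm6-deficient liver thus lay 0.51 above the highest control, and controls 3 and 4 marked the top and the bottom of the control range. Group means were 8.23 ± 0.43 (SD, n = 4) and 9.58 ± 0.28 (SD, n = 3), a difference of 1.35 in log2 value (standard error 0.26, 95% interval 0.73 to 1.96, adjusted p = 0.287 from limma, unadjusted p = 0.00153). A change of this size or larger, in either direction, was seen in 0.312% of probe sets. For the changes of Fmo1, Fmo4 and Fmo5 this share was 3.09%, 1.70% and 34.5%. The change of Fmo2 was 1.52 without control 3 and 1.17 without control 4, the ends of its range when 1 liver was left out. Within the 12-week-old mice, 2 controls and 1 Trpm6-deficient, the difference was 1.54, and within the 13-week-old mice, 2 and 2, it was 1.26.

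Fmo1 (probe set 10359571) encodes a broad-range form that, besides drugs, oxidises hypotaurine to taurine. It was at 11.91, 12.17, 12.16 and 11.97 in controls 1 to 4, and at 12.41, 12.81 and 12.64 in Trpm6-deficient 1, 2 and 3. The groups were 0.24 apart at their nearest, and Trpm6-deficient 1 was the lowest and Trpm6-deficient 2 the highest of its group, as for Fmo2. Group means were 12.05 ± 0.13 (SD, n = 4) and 12.62 ± 0.20 (SD, n = 3), a difference of 0.57 in log2 value (standard error 0.12, 95% interval 0.29 to 0.85, adjusted p = 0.343 from limma, unadjusted p = 0.00220). It was 0.60 without control 3, 0.67 without Trpm6-deficient 1 and 0.47 without Trpm6-deficient 2. The difference was 0.77 among the 12-week-old and 0.46 among the 13-week-old mice.

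Fmo4 (probe set 10359561) encodes a less studied form with a longer C-terminal tail. It was at 8.38 and 8.48 in the 12-week-old controls 1 and 2 and at 7.43 in both 13-week-old controls, and at 8.51, 8.88 and 8.51 in Trpm6-deficient 1, 2 and 3. The groups were apart by 0.03 only, since the 12-week-old controls lay just under the lowest Trpm6-deficient livers, and the control values fell into 2 pairs by age. Group means were 7.93 ± 0.58 (SD, n = 4) and 8.63 ± 0.21 (SD, n = 3), a difference of 0.70 in log2 value (standard error 0.32, 95% interval -0.06 to 1.47, adjusted p = 0.770 from limma, unadjusted p = 0.0652). With age as a covariate the change was 0.83 and its standard error 0.14 (95% interval 0.48 to 1.18, unadjusted p = 0.00146), but the adjusted p from limma was 0.262. The difference was 0.45 among the 12-week-old and 1.08 among the 13-week-old mice. It was 0.54 without control 3, 0.85 without control 1 and 0.89 without control 2, and past the nominal threshold in the last 2.

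In the fit with age as a covariate, Fmo4 was lower at 13 than at 12 weeks with a coefficient of -0.75 (standard error 0.14, adjusted p = 0.650 from limma, unadjusted p = 0.00236), which was singled out after its values were seen. No probe set passed an adjusted p of 0.1 for age in limma, and 7.2% passed the nominal one. The age coefficients of Fmo1, Fmo2 and Fmo5 were -0.10, -0.13 and 0.13, with unadjusted p from limma of 0.444, 0.660 and 0.313. A term for unequal genotype changes at the 2 ages gave 0.63 for Fmo4 (standard error 0.10, adjusted p = 0.944, unadjusted p = 0.00224 from limma), where 4.69% of probe sets passed the nominal and none the adjusted threshold. The 12-week-old Trpm6-deficient group in this fit is 1 liver. The labels give no litter or day of collection beside age, and these cannot be told apart from it.

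Fmo5 (probe set 10494565) encodes an atypical form that acts mainly on ketones, as a Baeyer-Villiger oxidase. It was at 13.10, 12.77, 13.21 and 13.08 in controls 1 to 4, and at 12.80, 12.91 and 13.03 in Trpm6-deficient 1, 2 and 3. The groups overlapped, with control 2 the lowest and control 3 the highest of all 7 livers. Group means were 13.04 ± 0.19 (SD, n = 4) and 12.91 ± 0.12 (SD, n = 3), a difference of -0.13 in log2 value (standard error 0.12, 95% interval -0.41 to 0.15, adjusted p = 0.881 from limma). The interval allows a level between 0.755 and 1.11 of the control level. Without control 3 the change was -0.07, and without control 2 it was -0.22 (unadjusted p = 0.0359, adjusted p = 0.878 from limma).

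**Figure D1:**
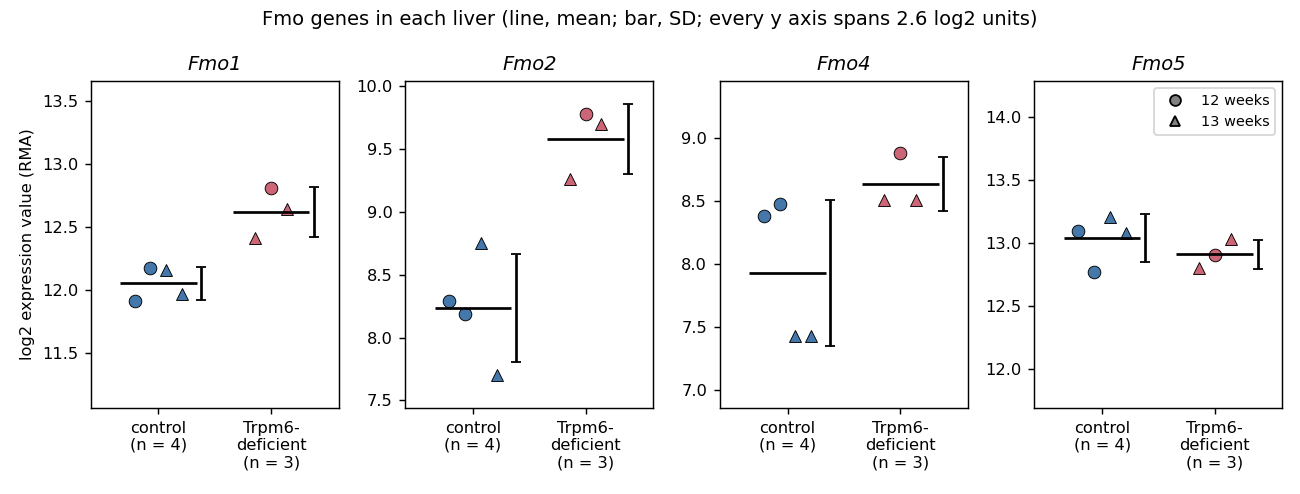
Log2 expression values (RMA) of Fmo1, Fmo2, Fmo4 and Fmo5, with 1 point per liver, circles for 12-week-old and triangles for 13-week-old mice, the group mean as a line and the SD as a bar (control, n = 4; Trpm6-deficient, n = 3). The groups are apart for Fmo1 and Fmo2, the 13-week-old controls lie at 7.43 for Fmo4, and the groups overlap for Fmo5.

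Fmo9 (probe set 10359837), the other gene of the family that the annotation names on the array, lies farther along chromosome 1. It lay between 5.35 and 5.59 in all 7 livers, just above the lower quartiles, and the groups differed by -0.04 (standard error 0.06, adjusted p = 0.926 from limma). Whether this level is above background was not examined.

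**Figure D2:**
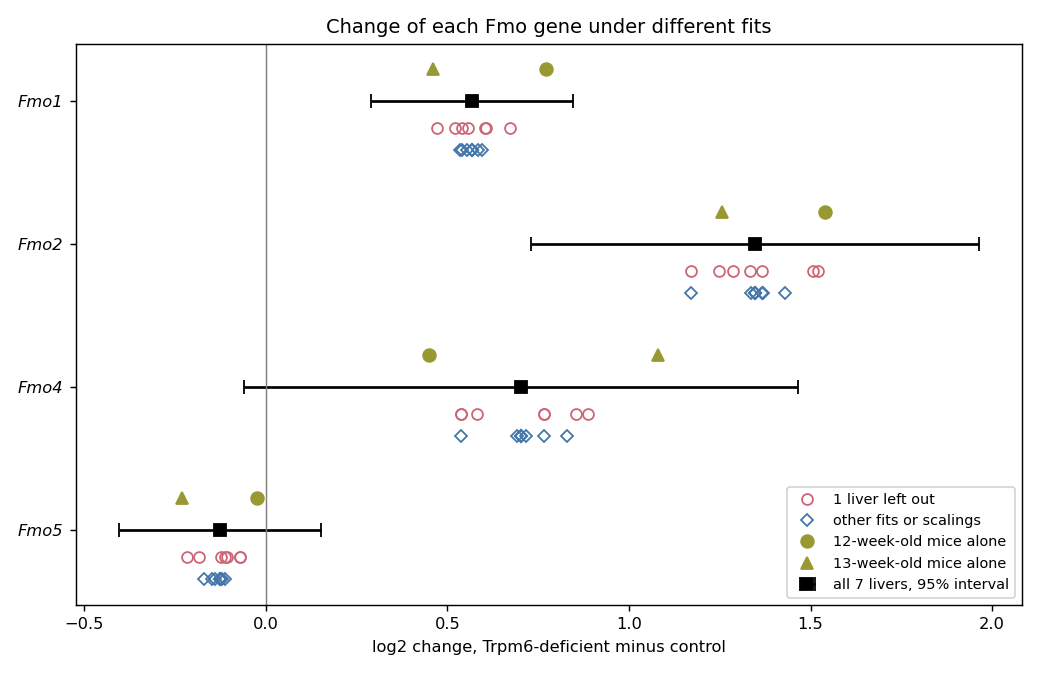
Log2 change (Trpm6-deficient minus control) of each Fmo gene over all 7 livers with its 95% interval (squares), with 1 liver left out (open circles), under other fits or scalings (diamonds) and among the mice of 1 age (filled circle, 12 weeks; triangle, 13 weeks). Fmo2 stays between 1.17 and 1.54, Fmo1 between 0.46 and 0.77 and Fmo4 between 0.45 and 1.08, and the interval of Fmo4 crosses 0.

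Whether the genes of the family differed in their changes was tested on the differences between 2 genes within each liver, over all 6 pairs, with a two-sided exact permutation test over the 35 ways to split 7 livers into 4 and 3. The smallest p this design allows is 0.0571. Fmo2 exceeded Fmo1 in change by 0.78 on the log2 scale (exact p = 0.0571, adjusted p = 0.114), and Fmo5 lay below Fmo2 by a difference in change of -1.47 (exact p = 0.0571, adjusted p = 0.114). Fmo5 also lay below Fmo1, by -0.69 (exact p = 0.0571, adjusted p = 0.114). In these 3 pairs the groups did not overlap, which is what gives the smallest possible p and is no further support. The other differences were -0.83 for Fmo5 against Fmo4 (exact p = 0.171, adjusted p = 0.257), -0.64 for Fmo4 against Fmo2 (exact p = 0.229, adjusted p = 0.274) and 0.14 for Fmo4 against Fmo1 (exact and adjusted p = 0.686). The last turned to -0.067 without control 3 and to -0.0033 without control 4, the 13-week-old controls.

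The genes beside the family were compared by their order in the RefSeq gene table. Of the 20 protein-coding genes nearest to Fmo4, Fmo1 and Fmo2 on chromosome 1, 10 on each side and Fmo genes aside, 17 had a named probe set. Their log2 changes lay between -0.39 and 0.21 with a median of -0.04 (-0.035), beside 0.57 to 1.35 for the 3 Fmo genes. Their mean values over the 7 livers ran from 4.10 to 9.33, beside 8.23 to 12.30 for the 3 Fmo genes. Several lay under the array medians. RMA shrinks differences near background, so small changes of the dim ones say little. None of the 17 passed limma's adjusted test, and past the nominal threshold 0 of the 17 were higher and 3 were lower, beside 3.85% and 3.03% of all probe sets. Over the other fits and with each liver left out, 0 or 1 was higher and 2 to 4 were lower, and the 1 higher was seen in 8 of 16 of them, among these without controls 1 or 2 or Trpm6-deficient 1. The 3 lower genes, which were named after their values were seen, were Scyl3, a pseudokinase gene (-0.39, standard error 0.09), Prrx1, a homeobox gene (-0.22, standard error 0.06) and Pigc, a gene of GPI anchor synthesis (-0.23, standard error 0.09). Beside Fmo5 on chromosome 3, 18 of 20 genes were measured, with changes between -0.23 and 0.33. Past the nominal threshold 1 was higher, the receptor gene Notch2 (0.33, standard error 0.10), and 1 was lower, the anchoring protein gene Pde4dip (-0.23, standard error 0.08). Without Trpm6-deficient 1 these counts were 2 and 0.

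**Figure D3:**
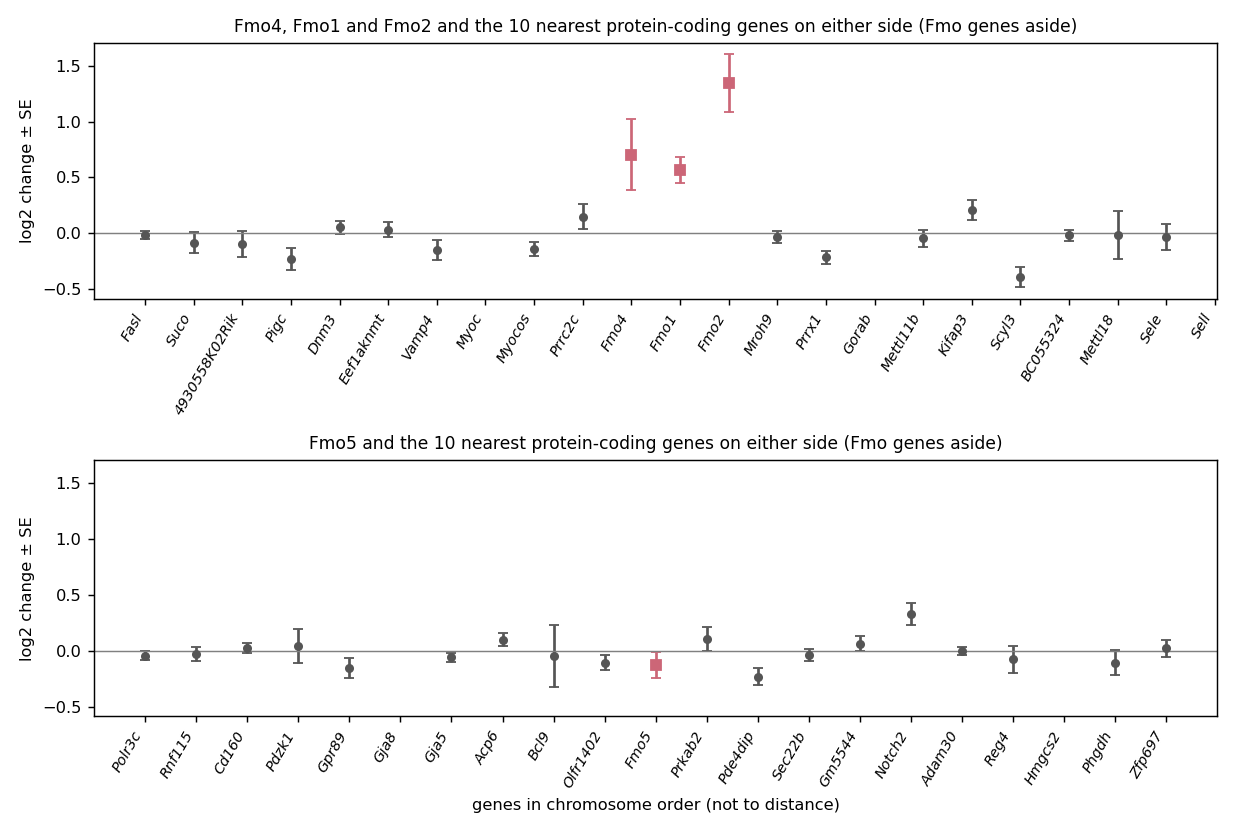
Log2 change with its standard error (y axis) for Fmo genes (squares) and for the 10 nearest other protein-coding genes on each side (circles), in chromosome order and not to distance; genes with no point have no probe set of their own. On chromosome 1 the 17 measured neighbours lie between -0.39 and 0.21, below the 3 Fmo genes. Several of these neighbours are dim (mean values from 4.10), and small changes there say little.

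Profiles most like those of the Fmo genes were sought among 18564 probe sets with 1 gene symbol and a mean log2 value of 5 or more, by the root mean square difference over the 7 livers after the mean of each gene was subtracted. Fmo5 varied too little for this search (SD 0.16 over the 7 livers, under the minimum of 0.3). Nearest to Fmo2 were Acot4, a peroxisomal thioesterase gene (difference 0.239), Nqo1, the quinone reductase gene that NRF2 induces (0.265), and 1810046K07Rik (0.280). Nqo1 was at 6.26 in control 4, its lowest value as for Fmo2, and at 8.39 in Trpm6-deficient 2, its highest as for Fmo2. Acot4 had a log2 change of 1.19 (standard error 0.21) and Nqo1 one of 1.37 (standard error 0.24).

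Nearest to Fmo1 were Ccdc141 (difference 0.0787), Tmprss2, a membrane serine protease gene (0.0838), and Tmem185a (0.0846), with log2 changes of 0.58, 0.51 and 0.52. Nearest to Fmo4 were Hmcn1, an extracellular matrix gene (0.232), Flna, which encodes the actin crosslinker filamin A (0.249), and Chic1 (0.256). For each of these 3, both 13-week-old controls were the lowest of the 7 livers, as for Fmo4. None of the 9 genes passed limma's adjusted test over all probe sets. Tmprss2 (adjusted p = 0.119 from limma) passed it where the fit held only probe sets with 1 gene symbol (0.0708) or a mean value of 5 or more (0.0849), both of which the search had required, and 1810046K07Rik passed without Trpm6-deficient 1 (0.0615). Likeness here is a description over 7 livers in 2 groups, and since the genes were picked for profiles like those of Fmo genes, their own changes are no separate result.

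**Figure D4:**
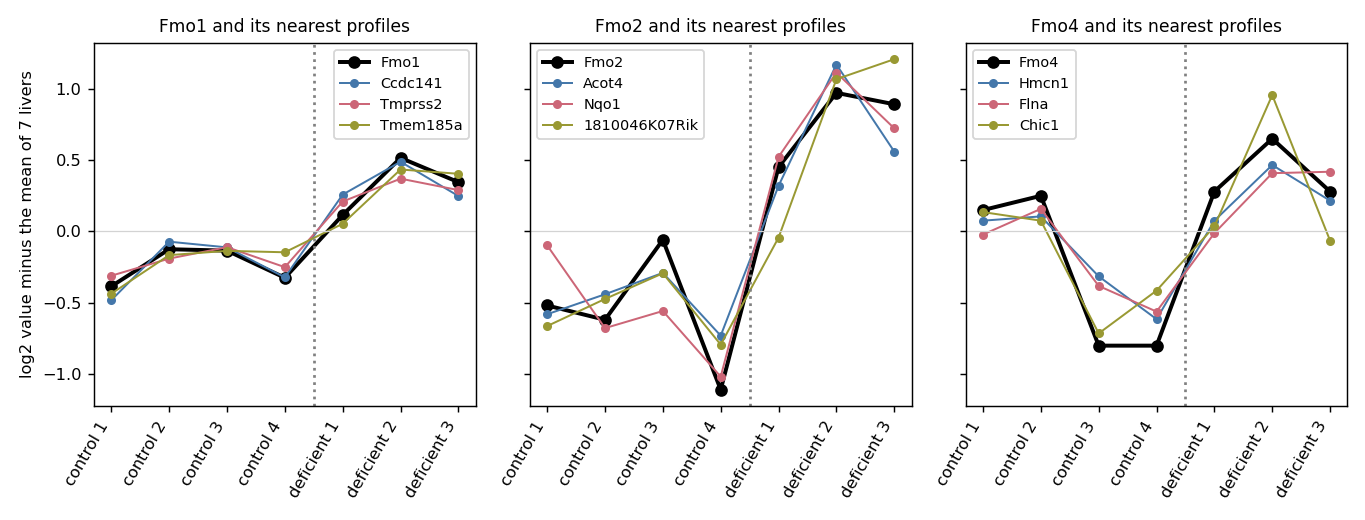
Log2 value minus the mean of the 7 livers (y axis) for Fmo1, Fmo2 and Fmo4 (black) and the 3 genes with the nearest profile (colours), by liver; the dotted line parts control from Trpm6-deficient livers. The Fmo2 panel spans the widest range, and in the Fmo4 panel controls 3 and 4 lie lowest.

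Genes of the cofactors and of linked pathways were counted in lists. The enzymes take electrons from NADPH, and of 8 genes of NADPH supply 7 were measured, with a median log2 change of 0.18 beside 0.00 over all probe sets. None passed limma's adjusted test and 1 was higher past the nominal threshold: Pgls, of the pentose phosphate pathway (0.31, standard error 0.12), beside 3.85% of all probe sets. This call was lost in 8 of 16 other fits, with age as a covariate, array weights or the unmoderated test, and without any one of the controls or Trpm6-deficient 3. Me1, the cytosolic malic enzyme gene, was at 12.28 and 12.20 in the 12-week-old controls, at 11.47 and 11.42 in the 13-week-old controls and at 12.00 to 12.13 in Trpm6-deficient livers. The 13-week-old controls were thus the low ones, as for Fmo4. Idh1, cytosolic isocitrate dehydrogenase, had a log2 change of 0.11 (standard error 0.13). Of 4 genes of FAD and riboflavin supply 2 were measured and none passed at either threshold, Rfk, the riboflavin kinase gene, at 0.28 (standard error 0.14, unadjusted p = 0.0988 from limma) and the riboflavin transporter gene Slc52a3 at -0.06 (standard error 0.05).

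Of 10 genes listed around cysteamine and taurine synthesis, the pathway to which Fmo1 belongs, all were measured. Not every listed gene, Got1 and Slc6a6 among them, encodes a step of that synthesis. None passed limma's adjusted test, and past the nominal threshold 2 were higher and 0 were lower, beside 3.85% and 3.03% of all probe sets. The number higher was 4 without control 1, and 1 without controls 2, 3 or 4 or Trpm6-deficient 1 or 3, and the number lower was 1 without control 4 or Trpm6-deficient 1 or 2. The 2 genes were Vnn3, a pantetheinase gene, at 0.69 (standard error 0.16) and Got1, a cytosolic transaminase gene, at 0.22 (standard error 0.08). Vnn3 lay between 9.41 and 9.80 in control and 10.03 and 10.60 in Trpm6-deficient livers, without overlap, as for 2.94% of all probe sets in this direction. Csad, which encodes the decarboxylase that makes hypotaurine, was at 11.82, 10.73 and 9.29 in Trpm6-deficient 1, 2 and 3 and between 10.89 and 12.19 in controls (log2 change -0.84, standard error 0.62, unadjusted p = 0.222 from limma). Cdo1, the cysteine dioxygenase gene, had a change of 0.20 (standard error 0.11).

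Of 21 other enzymes of the first phase of metabolism that are not cytochromes P450, all were measured. None passed limma's adjusted test, and past the nominal threshold 5 were higher, 4 were lower and 12 did not pass, with a median of 0.09. Of all probe sets 3.85% were higher and 3.03% lower. The number higher was 3 without control 3 or Trpm6-deficient 2 or 3, and the number lower was 1 without controls 1, 2 or 4 or Trpm6-deficient 3, and 2 without Trpm6-deficient 2. The higher ones were Nqo1 (1.37), the carbonyl reductase gene Cbr1 (0.66, standard error 0.09), the monoamine oxidase gene Maob (0.55, standard error 0.09), the quinone reductase gene Nqo2 (0.34, standard error 0.13) and the xanthine dehydrogenase gene Xdh (0.21, standard error 0.08). The lower ones were the aldehyde oxidase gene Aox3 (-1.36, standard error 0.24), the alcohol dehydrogenase gene Adh4 (-0.61, standard error 0.24), the epoxide hydrolase gene Ephx2 (-0.40, standard error 0.15) and the aldo-keto reductase gene Akr1c6 (-0.24, standard error 0.09). Aox3 lay between 12.49 and 12.81 in control and at 11.73, 11.43 and 10.73 in Trpm6-deficient 1, 2 and 3. The groups did not overlap, as for 2.38% of all probe sets in this direction. Of 5 genes of electron transfer around cytochrome b5, which the Fmo enzymes do not need, 4 were measured and none passed at either threshold (median 0.03). The gene not measured was Por, the reductase gene of cytochromes P450.

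Of 9 transcription factors known to act on Fmo genes 8 were measured. None passed limma's adjusted test, and 1 was higher past the nominal threshold, Ahr (0.39, standard error 0.13), which encodes the aryl hydrocarbon receptor, beside 3.85% of all probe sets. This call was lost in 6 of 16 other fits, with the replicate block and without controls 2, 3 or 4 or Trpm6-deficient 2 or 3. Hnf4a, a main regulator of hepatocyte genes, had a change of 0.01 (standard error 0.18) and Nfe2l2, which encodes NRF2, one of 0.03 (standard error 0.23).

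**Figure D5:**
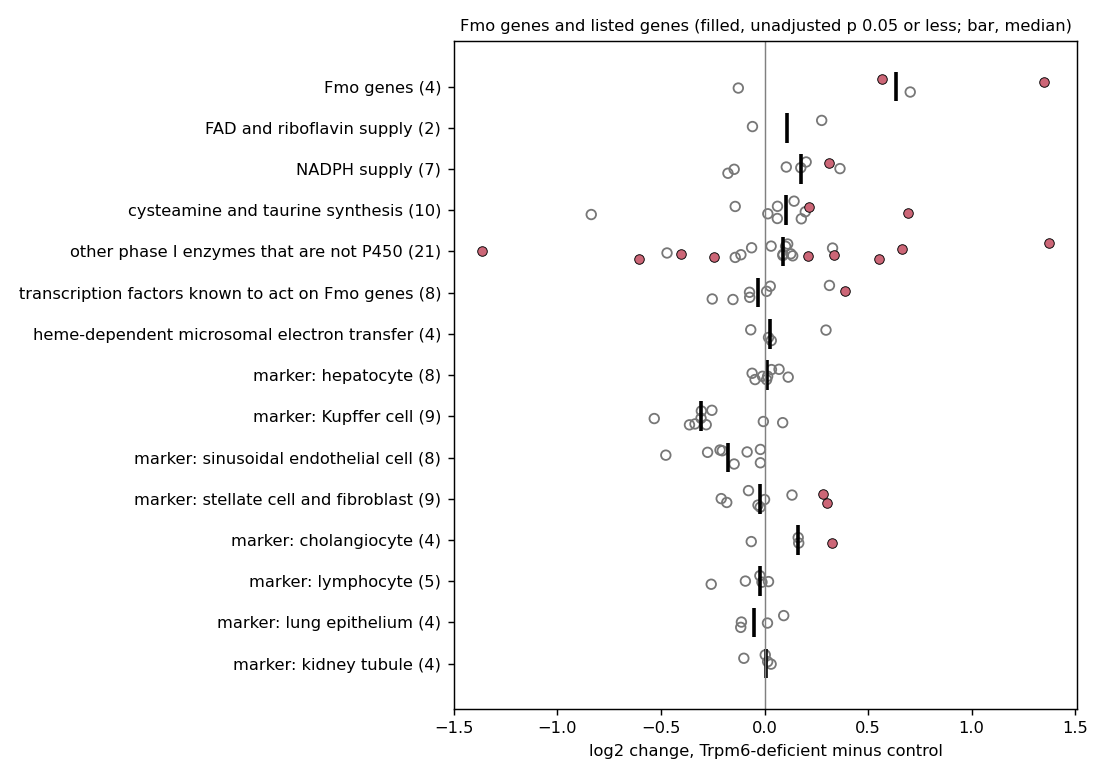
Log2 change (x axis) of the 4 Fmo genes and of the members of each list, with 1 point per gene, filled where past the nominal threshold in limma; the bar is the median of a list and the number of measured genes stands in parentheses. Medians of the lists lie between -0.31 and 0.18, and the other enzymes of the first phase lie on both sides of 0.

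Markers of other cells were measured beside these results. Of 9 Kupffer cell markers none passed at either threshold (median -0.31). Their mean level ranged from 8.47 to 9.43 in control and from 8.75 to 8.96 in Trpm6-deficient livers. Of 8 sinusoidal endothelial markers none passed either (median -0.18), with mean levels of 8.98 to 9.96 and 9.23 to 9.61. In both lists the lowest level was that of control 1. Without control 1, 7 of the 9 and 4 of the 8 were lower past the nominal threshold, as was 1 of the 9 without Trpm6-deficient 1. With all 7 livers, 1 of the 9 was lower past it with age as a covariate, median centring or array weights. The same held over probe sets with 1 gene symbol. With the replicate block 1 of the 8 was lower past it. The share of all probe sets lower in these fits is not given here, so the counts cannot be set against it. Of 9 stellate cell and fibroblast markers, Reln (0.30) and Des (0.28) were higher past it, and of 4 measured cholangiocyte markers Krt19 (0.33), beside 3.85% of all probe sets. The number of stellate markers higher was 1 without controls 1, 3 or 4 or Trpm6-deficient 2 or 3, and no cholangiocyte marker was higher past it without controls 2 or 4 or Trpm6-deficient 2 or 3. The 5 measured lymphocyte markers did not pass. Among 4 lung epithelial markers, beside Fmo2 as a lung gene, Sftpa1 and Sftpb had means of 6.75 and 6.28 over the 7 livers. Sftpa1 lay above the median of every array. Sftpc lay between 5.28 and 5.68 and Scgb1a1 between 3.58 and 3.72, the latter under the lower quartile of every array. None of the 4 lung and 4 kidney tubule markers passed at either threshold (medians -0.05 and 0.01). Without control 1 Fmo2 was higher by 1.37 and Fmo1 by 0.52. The part of other cells in the results was not tested further, and in bulk liver fewer cells of a type and less RNA per cell cannot be told apart.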

How the data were processed

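RNA from the livers of 7 male mice, 4 control and 3 Trpm6-deficient, was hybridised to Affymetrix Mouse Gene ST arrays. According to the submitters' notes the authors ran RMA in Affymetrix Expression Console 1.4.0. The log2 values they deposited, rounded to 2 decimals, cover 35556 probe sets and were not transformed further. RMA shrinks differences near background and gives no detection call. The genome build is not given in the sources used here.

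Probe sets were named by the platform annotation (21789 with 1 symbol, 1621 with several, 12146 with none, the last unnamed here), and the brightest was taken per gene. Groups were compared with limma 3.58.1 in R 4.3.3 without a covariate, as in the study's methods, with Benjamini-Hochberg adjustment over all probe sets and a threshold of 0.1, or a nominal one of 0.05. Pairs of Fmo genes were compared with exact permutation tests (scipy 1.17.1). The fits were tested on simulated data. Named were all Fmo genes, the listed genes past the unadjusted threshold with up to 3 more of the highest mean, the nearest profiles and, chosen after their values were seen, Arntl, Dbp, Scgb1a1 and 5 chromosomal neighbours. Alternatives were age, a replicate block, other scalings, filters and variance models, an unmoderated t-test, and each liver left out. The methods name a t-test for the nominal threshold without saying whether it was limma's moderated one. Here 2444 probe sets passed that threshold in limma, close to the number the study reports, and 1863 in the unmoderated test. The Fmo genes and the lists were chosen with earlier results of these data known. Genes of the family other than these and Fmo9 were not analysed here.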

Additional observations from a re-analysis of the deposited data

How the results depend on the processing

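The log2 changes of Fmo1, Fmo2, Fmo4 and Fmo5 kept their direction, and none passed an adjusted p of 0.1, in all 16 other fits of each. Leaving out 1 liver gave 1.17 to 1.52 for Fmo2, 0.47 to 0.67 for Fmo1, 0.54 to 0.89 for Fmo4 and -0.22 to -0.07 for Fmo5. For Fmo1 the 12-week-old mice alone gave 0.77, further from 0.57 than the SD of single livers within the groups. That difference rests on 2 controls and 1 Trpm6-deficient liver, so it does not show an unequal change at the 2 ages. Of the 4 genes 2 were past the nominal threshold, both higher. The number was 3, all higher, when age was a covariate or control 1 was left out. Without control 2 it was 4, but not in 1 direction: Fmo1, Fmo2 and Fmo4 were higher and Fmo5 was lower (-0.22). The number thus ran from 2 to 4 over the livers left out. For fits with 1 liver left out, the share of all probe sets past this threshold is not given here. Counts in those fits therefore cannot be set against it. The lowest adjusted p from limma was 0.175 for Fmo2, over probe sets with 1 gene symbol. Replicate numbers are shared by the groups, but deviations of same-numbered livers correlated at 0.33, 0.26 and 0.09, so that the numbers are not taken to pair them. With the replicate number as a block the changes were 1.17 for Fmo2, 0.54 for Fmo1, 0.54 for Fmo4 and -0.11 for Fmo5, and no call changed. The change of Fmo4 minus that of Fmo1 was 0.14 and reversed to -0.067 without control 3 and -0.0033 without control 4. Counts of the lists at the nominal threshold are small and moved with the fit: those higher in cysteamine and taurine synthesis from 2 to between 1 and 4, and the other enzymes of the first phase from 5 higher and 4 lower to between 3 and 5 and between 1 and 4, and the 1 higher gene of NADPH supply (Pgls) and of the transcription factors (Ahr) was lost in 8 and 6 of 16 fits. No gene had another probe set of its own to set in place of the first. The age and interaction terms and the alternatives for pairs of genes and for chromosomal neighbours were chosen after the data were seen.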
